A study of Mus musculus with 3 samples.

Results

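The cytosolic ribosomal protein genes encode the proteins that form the large and the small subunit of the ribosome in the cytosol. They were chosen by name among the protein-coding genes of the mouse annotation GENCODE M21 on GRCm38. A gene belonged to them when its name began with Rpl or Rps and a number, or was Rpsa, Rplp0, Rplp1 or Rplp2. Kinases, binding proteins and pseudogenes with similar names were left out. This gave 85 of 21951 protein-coding genes, 52 of the large subunit with its stalk and 33 of the small subunit.

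The sites come from RAW264.7, an established mouse macrophage line of transformed cells that was grown in culture and left untreated, with no genetic change named. Poly(A)+ RNA of 3 biological replicates of this 1 condition was profiled by miCLIP2, in which an antibody against N6-methyladenosine (m6A) is crosslinked to RNA and reverse transcription stops beside the crosslink. The authors pooled the replicates into 1 list of 19301 predicted m6A sites, each with a score from the classifier m6Aboost. The score says how firmly the classifier called a site and is not a methylation level, and the list starts at a score of 0.5 and gives no read counts or coverage. The depth behind a site, its spread between replicates and the abundance of an mRNA were therefore unknown, and no test over samples could be made.

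Of 8 macrophage markers 4 carried sites (95% Wilson interval of the share 21.5% to 78.5%), and the interval held the 23.1% of all protein-coding genes that had a site. They were Cd14 with 13, the growth factor receptor gene Csf1r with 11, the transcription factor gene Spi1 with 6 and the lysozyme gene Lyz2 with 2. Adgre1, Cd68, Itgam and Mertk had no site, and 0 of 8 markers of other cells had any (0.0% to 32.4%), an interval that held the 23.1% too. A gene without a site can still be expressed, so the markers without sites say nothing of their level.

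Ribosomal proteins are made in matched amounts from a large set of short and abundant mRNAs. Most of these mRNAs start with a run of pyrimidines, the TOP sequence, through which mTOR signalling controls their translation, and their genes have left many processed pseudogenes, intronless copies of the mRNA, elsewhere in the genome. m6A is added to mRNA mainly by the Mettl3-Mettl14 enzyme within DRACH, a motif with the modified A at its centre followed by C, and is known to be found mostly in long exons and around stop codons, away from splice junctions.

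Most ribosomal protein genes had no site. Of the 85 genes, 26 carried at least 1 site on their strand, against 23.1% of all protein-coding genes. This was 30.6% of the ribosomal protein genes (95% Wilson interval 21.8% to 41.0%), and the interval held the share over all genes. The other 59 genes, 69.4% (59.0% to 78.2%), had no site, beside 16871 of 21951 protein-coding genes, or 76.9%. Such intervals cover counting error only, and neither sites nor genes are replicates of a condition. The share was thus near that of the background, and it depended on the score. With a score of at least 0.7, 8 of the 85 genes had a site, or 9.41% (4.85% to 17.5%), against 19.0% of all protein-coding genes, so the order of both shares turned. Read on the exons of 1 coding transcript per gene, 26 of 82 ribosomal protein genes had a site, or 31.7%, against 25.4% of all genes with such a transcript.

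The 26 genes held 36 sites in all, mostly 1 per mRNA. A lone site was found in 20 of them (76.9%), 2 sites in 3 genes, 3 sites in 2 genes and 4 sites in 1 gene. Over all protein-coding genes with a site the median was 3 sites per gene, and 25.9% had 1 site. Ribosomal protein mRNAs also offered less sequence. Their median spliced length was 853 nt, against 2587 nt over all coding transcripts, and the median number of DRACH motifs was 16 against 52. Set against the motifs, 31 sites fell on 1564 DRACH A, which is 19.8 sites per 1000 (14.0 to 28.0), and over all coding transcripts the rate was 13.7 per 1000. This order turned too with the score, to 5.75 (3.03 to 10.9) against 8.42 per 1000 at scores of at least 0.7 and 0.639 against 1.32 per 1000 at 0.9, where 1 site was left. Among transcripts of 500 to under 1000 nt, the class of most ribosomal protein mRNAs, 16 of 45 ribosomal protein genes had a site (35.6%, 23.2% to 50.2%), beside 13.6% of the 1764 coding genes of that length. In the other length classes that held ribosomal protein genes the interval held the share over all coding genes, at 2 of 10 genes (5.67% to 50.98%) beside 11.3% below 500 nt, 28.6% (13.8% to 49.96%) beside 21.1% from 1000 to under 2000 nt, 40.0% (11.8% to 76.9%) beside 29.3% from 2000 to under 4000 nt and 0 of 1 gene beside 33.6% from 4000 nt. At scores of at least 0.7 the class of 500 to under 1000 nt kept 4 of 45 genes (8.89%, 3.51% to 20.7%), beside 9.52%. Ribosomal protein genes with and without a site had medians of 14 and 17 DRACH A per transcript, with ranges of 7 to 70 and 3 to 88.

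**Figure D1:**
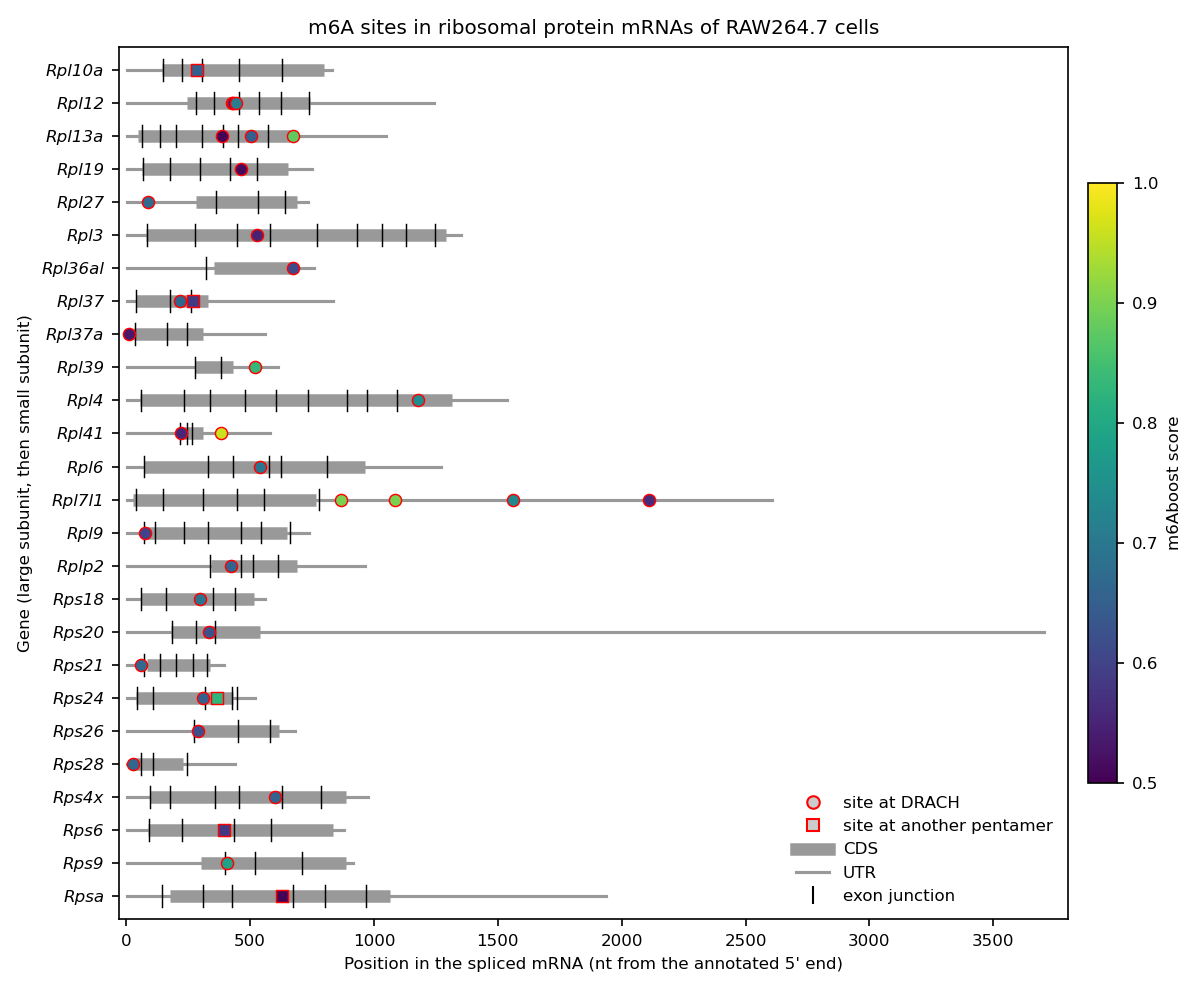
Map of the 26 ribosomal protein mRNAs with a site, drawn to scale from the annotated 5′ end in nt, with UTRs as thin lines, the CDS as thick bars and exon junctions as ticks. Each of the 36 points is a site, coloured by its score, and the 4 sites of Rpl7l1 lie in its long 3′ UTR while most others lie in the CDS of short mRNAs.

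In the large subunit, 16 of 52 genes carried 25 sites (30.8% of the genes, 19.9% to 44.3%). The highest score of the whole set was in Rpl41, which encodes the smallest ribosomal protein. Its site at chr10:128548315, minus strand, scored 0.961 and lay in the 3′ UTR, 72 nt past the last base of the stop codon. The 50 nt that follow it had 2 other copies in the genome. A weaker site of 0.554 lay in the 5′ UTR at chr10:128548971. Rpl39, whose protein lines the tunnel through which the nascent chain leaves, had 1 site of score 0.832 at chrX:37082613 in the 3′ UTR. Rpl4, also a tunnel protein, had 1 site of 0.740 at chr9:64178304, in the CDS part of its last exon.

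Rpl13a, whose protein can leave the ribosome of myeloid cells to silence inflammatory mRNAs, had 3 sites. Its site at chr7:45125934 on the minus strand scored 0.878, 12 nt past the last base of the stop codon. The other 2, at chr7:45126183 and chr7:45126713, were CDS sites of 0.650 and 0.503. All 3 also fell within the span of the overlapping gene Gm45713, so the list cannot tell which transcript carried them. Rpl12, part of the base of the stalk, had 3 sites within 1 exon of 99 nt, of scores 0.525, 0.536 and 0.710 at chr2:32962645, chr2:32962649 and chr2:32962659. The list does not tell whether these 3 neighbours are separate events.

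The other core genes of the large subunit had weaker sites. Rpl37 had 2 in the CDS, of 0.664 and 0.582, and Rpl37a had 1 in the 5′ UTR, of 0.530, at nt 9 of the annotated mRNA. Both encode small zinc-binding proteins. Rpl27 had 1 site of 0.675 in the 5′ UTR, 272 nt before the nearest junction. CDS sites were found in Rpl6 (0.694), Rpl10a of the mobile L1 stalk (0.650), Rpl9 (0.598), Rpl3 near the peptidyl transferase centre (0.548) and Rpl19 (0.512). None of these reached a score of 0.7.

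The acidic stalk recruits the elongation factors to the ribosome, and of its genes only Rplp2 had a site. That site, at chr7:141447991 on the plus strand, scored 0.659 and lay in the CDS, 40 nt before a junction. Rplp0, which anchors the stalk, had 24 DRACH A in its mRNA and no site, and Rplp1 had 5 and no site.

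In the small subunit, 10 of 33 genes carried 11 sites (30.3%, 17.4% to 47.3%), and the shares of both subunits were alike within their intervals. Rps24 was the small subunit gene with 2 sites, both in the CDS. The site at chr14:24493430 on the plus strand scored 0.827, the highest of the small subunit, and the site at chr14:24492107 scored 0.650. Rps9, whose protein sits near the mRNA entry, had 1 CDS site of 0.789 at chr7:3704656. The other small subunit genes stayed below 0.7. CDS sites were found in Rps18 (0.692), Rps28 (0.663), Rps4x (0.658), Rps20 (0.625), Rps26 at the mRNA exit (0.617), Rps6, the target of the S6 kinases (0.581), and Rpsa, known also as a laminin receptor (0.503). Rps21 had a site of 0.668 in the 5′ UTR. No small subunit site lay in a 3′ UTR. The chosen Rps20 mRNA has 3167 nt of it, beside a median of 86 nt over all ribosomal protein mRNAs. Whether this long isoform was present is not known from the list.

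The paralogs with sites, Rpl7l1 and Rpl36al, carried them in 3′ UTRs. Rpl7l1, a relative of Rpl7, had 4 sites, the most of any ribosomal protein gene, all in a 3′ UTR of 1841 nt. They stood at chr17:46775648, chr17:46775427, chr17:46774952 and chr17:46774401 on the minus strand, 100, 321, 796 and 1347 nt past the last base of the stop codon, with scores of 0.8991, 0.8998, 0.734 and 0.559. Rpl7 itself had no site in a 3′ UTR of 66 nt or elsewhere. Rpl36al, a relative of Rpl36a, had 1 site of 0.612 at chr12:69182814, 2 nt past the last base of its stop codon, and Rpl36a had none. The paralogs Rpl3l, Rpl10l, Rpl22l1, Rpl39l and Rps27l had no site.

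Counted at all scores, the sites of the ribosomal protein genes lay mostly in the CDS. The CDS held 24 of the 36 sites (66.7%, 50.3% to 79.8%), against 46.0% of the 18220 sites in genes with a chosen coding transcript. The 3′ UTR held 8 (22.2%, 11.7% to 38.1%) against 43.2%, and the 5′ UTR 4 (11.1%, 4.41% to 25.3%) against 2.15%. No site was intronic (0.0% to 9.64%), an interval that held the 3.14% in genes with a chosen coding transcript. Of the 36 sites, 0 fell in the small RNAs that ribosomal protein genes host, although 30 of these genes carry 58 snoRNAs on their strand. Of the 8 sites in 3′ UTRs, Rpl7l1 alone held 4. At scores of at least 0.7 the order turned, with 40.0% of the 10 sites in the CDS and 60.0% in 3′ UTRs. It turned over all coding transcripts too, where 3985 of the 9392 sites at DRACH lay in the CDS and 5323 in 3′ UTRs.

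Scores were lower than in the list as a whole. The median score was 0.654 (0.598 to 0.692 from the order of the values), against 0.734 over the 19301 sites. At least 0.7 was reached by 10 of the 36 sites (27.8%, 15.8% to 44.0%) and by 58.1% of all sites, and a score of 0.9 by 1 site, that of Rpl41 (0.492% to 14.2%), and by 8.77% of all. Scores below 0.55 made up 7 of 36 (19.4%, 9.75% to 35.0%) against 9.79%. At these 2 limits the interval held the share over all sites. The 3′ UTR sites had the highest median score within the set, though their range of 0.559 to 0.961 overlapped that of CDS sites, 0.503 to 0.827. Their median score was 0.855, with 6 of 8 at 0.7 or more, while the median was 0.650 in the CDS, with 4 of 24 at 0.7 or more, and 0.611 in the 5′ UTR. Over all genes with a chosen coding transcript the medians ran the same way, 0.787 in 3′ UTRs, 0.698 in the CDS and 0.622 in 5′ UTRs. Because the transcript region is among the inputs of the classifier, a score difference between regions is not independent of how it was made.

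**Figure D2:**
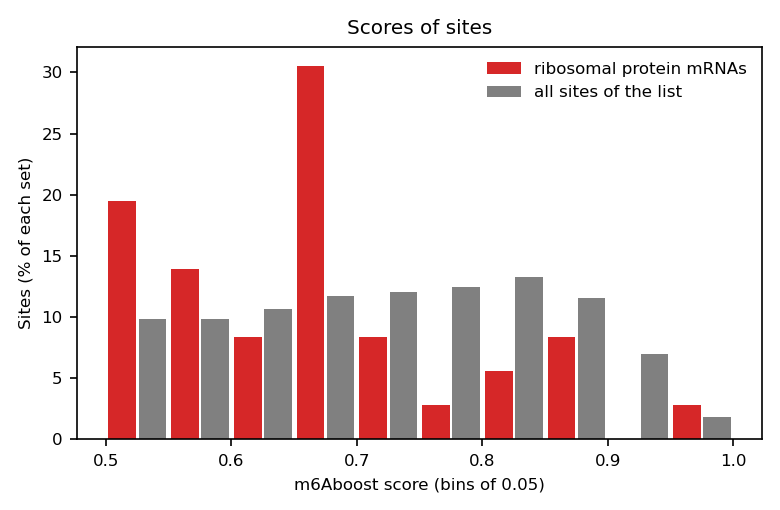
Scores of the 36 ribosomal protein sites (red) and of the 19301 sites of the list (grey), as the percentage of each set in bins of 0.05. The ribosomal protein sites gather below 0.7, with 11 of them from 0.65 to under 0.7.

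The windows around the 10 sites scoring 0.7 or higher are shown since these are the firmest calls of the set. They are read 5′ to 3′ on the mRNA in GRCm38, 21 nt each, and capitals mark the 5 bases centred on the called A. The 3 Rpl7l1 sites are in the order of the mRNA.
Rpl41: aagctatcGGACTgtgtgctg
Rpl7l1: gccttcagAAACTgaaggaag
Rpl7l1: cccctccaAGACTgttagagc
Rpl7l1: aaaaagctGGACAgtggggga
Rpl13a: cccaataaAGACTgtttgcct
Rpl39: aaacctggAGACTcttcgtgt
Rps24: agcgaaagGAACGcaagaaca
Rps9: gagagtatGGACTccggaaca
Rpl4: agagaaggGGACTgcagacaa
Rpl12: accatccaGAACAgacaggcc
All but Rps24 carry a DRACH motif, and 3 of the 10 carry GGACT.

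DRACH here means A, G or T, then A or G, then AC, then A, C or T, and it was read on the strand of the site only. It was present at 31 of the 36 sites (86.1%, 71.3% to 93.9%), beside 91.9% of all sites. GGACT was the most frequent pentamer with 7 sites (19.4%, 9.75% to 35.0%, against 19.4% of the list), followed by AGACT with 6 (16.7%, 7.87% to 31.9%, against 12.3%). GAACT was found at 1 site, in Rpl6 (0.492% to 14.2%), against 13.1% of the list. The intervals held the share of the list for these 3 pentamers and for DRACH. The 5 sites at other pentamers are shown because they depart from the motif in 2 ways, with capitals as above.
Rps24: agcgaaagGAACGcaagaaca
Rpl10a: agaaggacAAACGtttctcgg
Rps6: tgcattgtGGACGctaatctc
Rpl37: tcagacatGGATTccgtgagg
Rpsa: tgtaacacAGATTctcccctg
The pentamers of Rps24, Rpl10a and Rps6 end in G in place of A, C or T. Those of Rpl37 and Rpsa have T in place of the C after the A. AGATT was rare in the list, with 5 sites in all, and AAACG had 11. The sites stand at chr17:28329027 in Rpl10a, chr4:86856187 in Rps6, chr15:5118573 in Rpl37 and chr9:120130317 in Rpsa.

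Sites of ribosomal protein mRNAs lay close to exon junctions. Of the 36 sites, 29 lay closer than 100 nt to a junction (80.6%, 65.0% to 90.2%), against 12.97% of the 16641 sites in exons of all chosen coding transcripts, and 24 lay closer than 50 nt (66.7%) against 5.74%. The median distance was 40.5 nt. Such positions are common in these genes. Closer than 100 nt to a junction were 54.8% of the DRACH A in ribosomal protein mRNAs and 40.8% of those in all coding transcripts.

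The rates per motif are given by distance on the chosen mRNAs. Those of Rps15a and Rps20 are long, with 8 of 88 and 7 of 70 DRACH A closer than 100 nt to a junction. The list does not show whether these isoforms were present, so the rates far from junctions depend in part on this choice. Closer than 50 nt to a junction, 19 sites fell on 629 DRACH A of ribosomal protein mRNAs, or 30.2 per 1000 (19.4 to 46.7), beside 2.72 per 1000 over all coding transcripts. From 50 to under 100 nt the rates were 21.9 (9.40 to 50.3) and 8.30 per 1000. From 100 to under 200 nt they were 11.8 (3.23 to 41.9), from 2 sites, and 34.8 per 1000, and at 200 nt or more 9.31 (3.98 to 21.6), from 5 sites, and 18.0 per 1000. At all scores, ribosomal protein mRNAs thus had the highest rate in the nearest class, where coding transcripts as a whole had the lowest, although the intervals of the 4 classes of ribosomal protein mRNAs overlapped. At scores of at least 0.7 this order of the classes within ribosomal protein mRNAs did not hold. The rates of ribosomal protein mRNAs, from 2 or 3 sites a class, were then 3.18 (0.872 to 11.5), 13.2 (4.48 to 37.96), 11.8 (3.23 to 41.9) and 3.72 (1.02 to 13.5) per 1000 from the nearest class to the farthest, beside 0.854, 4.19, 21.9 and 11.7 over all coding transcripts. In both classes closer than 100 nt these intervals still lay narrowly above the rates over all coding transcripts. In both farther classes they held those rates. Sites next to junctions had the lower scores, with a median of 0.650 closer than 100 nt and 0.734 at 100 nt or more. Over all coding transcripts these medians were 0.655 and 0.746.

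**Figure D3:**
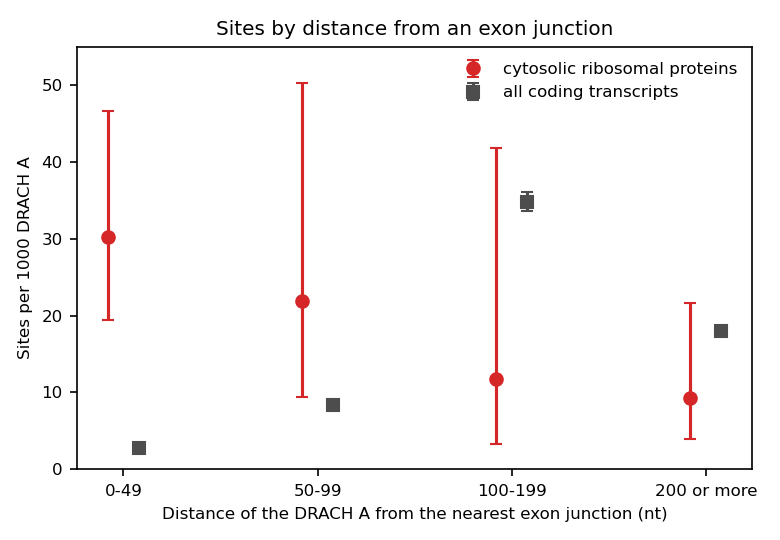
Sites per 1000 DRACH A by the distance of the A from the nearest exon junction in nt, for cytosolic ribosomal protein mRNAs (red circles) and all coding transcripts (grey squares), with 95% Wilson intervals as bars. The rate is 30.2 in ribosomal protein mRNAs and 2.72 in all coding transcripts closer than 50 nt, and 9.31 and 18.0 at 200 nt or more.

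Ribosomal protein mRNAs share much of their sequence with other places in the genome, and the authors kept only reads that mapped to 1 place. For each DRACH A, the 50 nt that follow it, where a truncated read begins, were looked up in GRCm38 on both strands. In ribosomal protein mRNAs 45.4% of 1470 such stretches had another exact copy (42.9% to 48.0%), against 4.92% over all coding transcripts. Of the 31 ribosomal protein sites at DRACH, 18 were followed by a stretch with another copy (58.1%, 40.8% to 73.6%), against 1.02% of 15264 sites over all coding transcripts. The ribosomal protein mRNAs thus gave 18 of the 155 such sites of the list.

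With the sites at other pentamers included, 21 of the 36 sites had another copy. The number of copies reached 6, at the Rps18 site. The stretch crossed an exon junction at 19 of the 36 sites, and 16 of these 19 had another copy, while 5 of the 17 whose stretch stayed in 1 exon did. Per 1000 DRACH A, stretches that crossed a junction held 48.3 sites in ribosomal protein mRNAs (29.97 to 77.1) and 2.41 over all coding transcripts, and stretches within 1 exon held 13.2 (7.997 to 21.6) and 16.0. Within 1 exon, stretches with another copy held 12.3 sites per 1000 (5.26 to 28.4) in ribosomal protein mRNAs and 2.47 over all coding transcripts, and those without held 13.7 (7.44 to 24.96) and 16.7. Stretches that crossed a junction and had no other copy held 42.9 per 1000 (14.7 to 119), from 3 sites, and 2.27 over all, and those that crossed and had a copy held 49.8 (29.3 to 83.3) and 5.08. At all scores, the rates of ribosomal protein mRNAs were thus above those of all coding transcripts in 3 of these 4 classes. For stretches within 1 exon without a copy the rate was lower, and the interval held the rate over all. At scores of at least 0.7 the stretches within 1 exon without a copy held 7 sites, or 9.56 per 1000 (4.64 to 19.6), beside 10.4 over all. Those within 1 exon with a copy held 1 site, or 2.46 (0.434 to 13.8) beside 1.23. Stretches that crossed a junction held 0 sites without a copy (0.0 to 52.0), beside 0.691. With a copy they held 1 site, or 3.83 (0.677 to 21.4) beside 0.968. At that score the intervals of all 4 classes thus held the rate over all coding transcripts. None of the 301 annotated pseudogenes named after Rpl or Rps genes had a site, and 8 of 10236 annotated processed pseudogenes had any. The part of read mapping in the sites beside junctions was not tested.

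Sites with another copy had the lower median score within the set. The 18 sites at DRACH with another copy had a median score of 0.638, with 2 at 0.7 or more, and the 13 without had a median of 0.734, with 7 at 0.7 or more. The highest score, that of Rpl41, was nevertheless at a site whose next 50 nt had 2 other copies, although its next 75 nt had 0. Of the 21 sites with another copy at any pentamer, 19 lay closer than 100 nt to a junction, and 1 of these 19 scored 0.7 or more. Of the 10 sites without a copy at that distance, 5 did. At 100 nt or more from a junction, 1 of 2 sites with a copy and 3 of 5 without scored 0.7 or more. Without the sites that had another copy, 15 sites in 10 genes were left. At 100 nt or more from a junction were 7 sites in 5 genes. Both held for 5 sites in 3 genes, namely Rpl7l1 with 3, Rpl39 and Rpl27. These limits were chosen after the data were seen.

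Several ribosomal protein genes whose chosen mRNA had many motifs had no site. Rps15a had the most DRACH A of the genes without a site, 88 in a chosen mRNA of 5179 nt, followed by Rpl18 with 65, Rpl22 with 43, Rpl5 with 37 and Rps3 with 31. The chosen Rps15a mRNA has a 3′ UTR of 4728 nt, and that of Rpl18 has a 5′ UTR of 2375 nt. The medians over ribosomal protein mRNAs are 86 nt for the 3′ UTR and 124.5 nt for the 5′ UTR. The list does not show whether such long isoforms were present in the cells. Rpl5 binds the 5S rRNA and Rps3 sits at the mRNA entry. Few of the stretches after their motifs had another copy, 8 of 86 in Rps15a, 9 of 62 in Rpl18, 3 of 42 in Rpl22 and 2 of 31 in Rps3, with more in Rpl5, 15 of 35. In 9 of the 56 genes without a site that had a chosen transcript, and in 2 of the 26 with a site, every stretch had another copy. The median last exon was 182 nt in the genes without a site (63 to 4822 nt) and 263 nt in those with a site (68 to 3350 nt), in ranges that overlapped, and 1108 nt over all coding transcripts.

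Genes of related function are set beside them for comparison, and their shares are read against the 23.1% of all protein-coding genes with a site and the 12.97% of exonic sites near a junction. Mitochondrial ribosomal proteins, encoded in the nucleus for the separate ribosome of mitochondria, had a site in 49 of 78 genes (62.8%, 51.7% to 72.7%), with 129 sites and a median score of 0.784, and the most in Mrpl9 with 7 and in Mrpl10 and Mrps2 with 6 each. Here 10 of 128 sites lay closer than 100 nt to a junction (7.81%), and 0 of 113 sites at DRACH were followed by a stretch with another copy. The share of genes with a site was thus far from the 23.1% in the mitochondrial set and near it in the cytosolic set, while the share of sites near junctions was far from the 12.97% in the cytosolic set, with an interval of 4.30% to 13.8% that held it in the mitochondrial set. Factors that assemble the cytosolic ribosome had a site in 39 of 57 genes (68.4%, 55.5% to 78.996%), with most in Nol9 with 17, Mdn1 with 9 and Ddx21, Rrs1 and Tcof1 with 7 each, and 25 of 106 exonic sites near a junction (23.6%, 16.5% to 32.5%).

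Other parts of the translation machinery varied. Of 9 elongation and termination factors 7 had a site (77.8%, 45.3% to 93.7%), an interval above the 23.1% of all protein-coding genes, with most in the translocase gene Eef2 with 4, followed by 4 genes with 3 each, the termination factor genes Etf1 and Gspt1 and the elongation factor genes Eef1g and Eif5a. Of 11 other mRNAs known to start with a TOP sequence 5 had a site (45.5%, 21.3% to 71.99%), an interval that held the 23.1%, led by Pabpc1, which encodes the poly(A)-binding protein, with 5, and the initiation factor genes Eif3h and Eif4b with 3 each. The abundance of these mRNAs was not analysed here, so the shares describe the list of sites.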

How the data were processed

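miCLIP2 libraries of untreated RAW264.7 cells in 3 replicates were processed by the authors. Per the labels and the study's methods, reads were mapped to GRCm38.p6 with STAR 2.7.3a, uniquely mapping reads were kept, alignments were indexed with SAMtools 1.9, duplicates were removed with UMI-tools 1.0.0, and bedtools 2.27.1 summarised read starts. Peaks called by PureCLIP in more than 1 replicate were classified by m6Aboost. The deposited unit is the m6Aboost score of each site, and the list holds no coverage, so the depth at each site is unknown. The classifier takes the sequence around the A, the transcript region, the signal relative to the transcript and C-to-T changes in the reads as inputs.

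From this list, sites were given to every protein-coding gene whose span held them on the same strand. All 19301 sites were at A in GRCm38, read with 1-based positions. GENCODE M21 was used here in place of the authors' release M23. Transcripts had a support level of at most 3 and an annotation level of at most 2, and each gene was read on 1 coding transcript, the APPRIS principal form where tagged, then the longest CDS, which existed for 17941 genes. Of the 85 ribosomal protein genes 3 had none. A site in 2 genes was counted in both for gene totals, which concerned 651 sites. The functions were checked on simulated sequences. Python 3.11.15, NumPy 2.4.6, SciPy 1.17.1 and matplotlib 3.10.9 were used.

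No test over samples was possible, and shares are given with 95% Wilson intervals beside the same over all genes. Members and lists were chosen with earlier results of these data known. Named were every ribosomal protein gene with a site, the stalk genes and Rpsa, and the 5 genes without a site with most DRACH A. The 3 genes with most sites of each other list were named, with any tied with the last of them. The paralogs, their relatives Rpl7 and Rpl36a, and every macrophage marker were named as well. The list of ribosomal components with other names is not reported here. Alternatives were higher scores, other assignments of sites, other transcripts, other motifs and other windows.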

Additional observations from a re-analysis of the deposited data

How the results depend on the processing

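At scores of at least 0.7 and 0.9, ribosomal protein genes with a site fell from 30.6% to 9.41% and 1.18%, below all protein-coding genes, which fell from 23.1% to 19.0% and 6.2%. Their sites fell from 36 to 10 and 1, and sites per 1000 DRACH A from 19.8 to 5.75 and 0.639, against 8.42 and 1.32 over all coding transcripts. CDS shares went from 66.7% to 40.0% and 0.0%, and 3′ UTR shares from 22.2% to 60.0% and 100.0%. Over all coding transcripts, 3985 of the 9392 sites at DRACH scoring at least 0.7 lay in the CDS and 5323 in 3′ UTRs. 5′ UTR shares went from 11.1% to 0.0% at both limits, beside 84 of the 9392 sites at 0.7. The DRACH share was 100.0% at 0.9, where 1 site was left. The cause was not tested. Further limits were chosen after seeing the data. Sites whose next 50 nt have no other copy numbered 15, in 11.8% of ribosomal protein genes, beside 20.2% of all genes. Copies were looked up at every A of ribosomal protein mRNAs but only at DRACH A of other mRNAs, so these shares are not fully alike. Sites at 100 nt or more from a junction numbered 7, in 5.88% of ribosomal protein genes, beside 18.5% of all genes. The share of all genes was 22.2% with each site given to the longest gene, 20.8% with exons of the chosen transcript and 26.5% among genes with a passing transcript. DRACH A near a junction were 40.2% within 50 nt, 65.7% within 200 nt and 51.3% with the longest spliced transcript, and stretches with another copy were 51.3% at 30 nt and 40.0% at 75 nt, as the windows imply. Other alternatives stayed within the interval of the value or within 1.5 times the count. Leaving out a replicate was not possible with 1 pooled list. No paired analysis was possible because there is 1 group.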
